A study of Homo sapiens with 2 samples.

Results

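The genes described here were the human cyclins, cyclin-dependent kinases (CDKs) and CDK-like kinases, CDK inhibitors, and the E2F transcription factors with their DP partners and pocket proteins. They were chosen by gene symbol among probe sets of the array that the annotation links to exactly 1 gene. The choice gave 57 genes, measured by 58 probe sets, of 14884 genes and 16098 probe sets with a single gene name. Expression had been measured on Affymetrix HuGene-2_0-st arrays in BE(2)-C cells, a human neuroblastoma cell line with MYCN amplification that was cloned from the line SK-N-BE(2). One group was transfected with linc00467 siRNA, a single siRNA that targets a long intergenic noncoding RNA, and the other with control siRNA, a scrambled sequence, both for 48 h. Each group was 1 culture of the same clone on 1 array, so no difference below carries an error or a test, and a chance difference between the cultures would look the same as a response to the siRNA. The comparison addressed which genes respond to knockdown of linc00467.

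The RNA targeted by the siRNA, LINC00467, had a log2 level of 5.67 in linc00467 siRNA cells, against 6.55 in control siRNA cells, a log2 difference of -0.88. One sample description calls the target lncMycN, whereas the title, the source name and the treatment label of that sample call it linc00467. The levels of the arrays correlated with r = 0.993 over 53617 probe sets, a correlation across probe sets that are not independent replicates. Markers of adrenergic neuroblastoma cells (9 genes, 10 probe sets) were at log2 levels of 6.41 to 11.51 in linc00467 siRNA cells and 6.52 to 11.67 in control siRNA cells. In linc00467 siRNA cells 3 of these (CHGA, DBH and GATA3) were lower by 1.2 fold or more and 2, both of ISL1, were higher, and their part in the results below was not tested. Schwann and mesenchymal cell markers (5 genes) lay at 3.61 to 7.73 in linc00467 siRNA cells and 4.02 to 7.97 in control siRNA cells, with DCN lower by 1.2 fold or more and 0 higher. Endothelial and blood cell markers lay at 2.05 to 4.62 in linc00467 siRNA cells and 2.06 to 4.62 in control siRNA cells. In bulk RNA, fewer cells in a given phase of the cycle and less RNA per cell cannot be told apart.

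The cell cycle is driven by CDKs, most of which are active only when bound to a cyclin. D-type cyclins with CDK4 and CDK6, and then E-type cyclins with CDK2, phosphorylate the pocket proteins RB1, RBL1 and RBL2, which releases E2F-DP dimers to switch on the genes of DNA replication. Cyclin A and B complexes with CDK2 and CDK1 carry the cell through S phase and mitosis, while a further branch of the families (cyclins C, H, K and T with CDK7, CDK8, CDK9, CDK12, CDK13 and CDK19) acts on RNA polymerase II. Neuroblastomas with MYCN amplification are known for high activity of the CDK4/CDK6, RB1 and E2F axis.

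Because E2F factors bind the promoters of several of these genes, the sequence around the annotated start was set beside the array values. The windows below, from RefSeq on GRCh38.p14, run from 250 bases before to 50 bases after the start of the 5 genes that differed most between the arrays (at least 1.5 fold), followed by RBL1, shown for its pair of E2F matches and added after its values were seen, and by CDK1 and CCNB2, mitotic genes that differed little. Capitals mark matches to an E2F site (TTTGGCGC, TTTCCCGC, TTTGCCGC or TTTCGCGC), to the cell cycle homology region, CHR (TTTGAA or TTCGAA), or to a CCAAT box (CCAAT), each searched on both strands. Matches of different motifs overlapped 0 times.
CCNE1 (chr19:29811741-29812040, plus strand): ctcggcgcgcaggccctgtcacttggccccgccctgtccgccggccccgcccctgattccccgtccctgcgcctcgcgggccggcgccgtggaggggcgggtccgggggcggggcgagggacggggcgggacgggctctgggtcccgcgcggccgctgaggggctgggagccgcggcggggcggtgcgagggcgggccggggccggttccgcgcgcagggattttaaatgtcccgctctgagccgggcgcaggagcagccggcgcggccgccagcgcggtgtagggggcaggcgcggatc
E2F7 (chr12:77065520-77065819, minus strand): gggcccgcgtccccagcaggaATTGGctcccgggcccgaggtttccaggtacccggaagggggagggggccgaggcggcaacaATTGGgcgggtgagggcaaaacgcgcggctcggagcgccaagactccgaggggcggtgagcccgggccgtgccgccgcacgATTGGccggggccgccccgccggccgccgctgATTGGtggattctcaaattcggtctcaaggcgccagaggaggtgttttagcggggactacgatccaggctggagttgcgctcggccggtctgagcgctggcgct
CDK16 (chrX:47218053-47218352, plus strand): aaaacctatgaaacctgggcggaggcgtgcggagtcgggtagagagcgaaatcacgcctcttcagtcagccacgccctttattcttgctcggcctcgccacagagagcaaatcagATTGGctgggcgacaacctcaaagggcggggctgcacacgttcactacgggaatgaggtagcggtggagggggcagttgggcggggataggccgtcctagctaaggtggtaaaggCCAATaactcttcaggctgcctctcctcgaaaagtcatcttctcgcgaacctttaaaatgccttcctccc
E2F1 (chr20:33686336-33686635, minus strand): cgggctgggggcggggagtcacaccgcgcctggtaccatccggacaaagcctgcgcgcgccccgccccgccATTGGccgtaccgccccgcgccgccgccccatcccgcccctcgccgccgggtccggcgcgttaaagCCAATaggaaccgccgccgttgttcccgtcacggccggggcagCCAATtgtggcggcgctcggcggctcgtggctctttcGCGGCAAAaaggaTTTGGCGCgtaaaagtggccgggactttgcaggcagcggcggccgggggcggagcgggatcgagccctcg
CDK15 (chr2:201806179-201806478, plus strand): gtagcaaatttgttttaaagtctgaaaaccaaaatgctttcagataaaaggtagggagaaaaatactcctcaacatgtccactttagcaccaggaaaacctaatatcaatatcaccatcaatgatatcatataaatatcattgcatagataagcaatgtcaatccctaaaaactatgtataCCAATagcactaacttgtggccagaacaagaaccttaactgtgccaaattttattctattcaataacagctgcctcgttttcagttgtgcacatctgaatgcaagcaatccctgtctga
RBL1 (chr20:37095948-37096247, minus strand): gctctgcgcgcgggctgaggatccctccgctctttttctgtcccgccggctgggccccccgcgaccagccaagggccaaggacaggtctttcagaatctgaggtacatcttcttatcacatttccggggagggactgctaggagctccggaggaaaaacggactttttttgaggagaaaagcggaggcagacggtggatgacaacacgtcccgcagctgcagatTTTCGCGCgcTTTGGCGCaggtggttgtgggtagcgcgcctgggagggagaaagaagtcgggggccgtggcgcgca
CDK1 (chr10:60778081-60778380, plus strand): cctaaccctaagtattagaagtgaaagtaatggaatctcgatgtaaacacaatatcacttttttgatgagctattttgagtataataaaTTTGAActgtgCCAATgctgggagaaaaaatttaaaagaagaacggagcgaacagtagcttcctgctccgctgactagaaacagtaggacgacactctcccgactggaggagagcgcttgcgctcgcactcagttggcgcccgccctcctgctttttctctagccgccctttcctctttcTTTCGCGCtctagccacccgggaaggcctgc
CCNB2 (chr15:59104896-59105195, plus strand): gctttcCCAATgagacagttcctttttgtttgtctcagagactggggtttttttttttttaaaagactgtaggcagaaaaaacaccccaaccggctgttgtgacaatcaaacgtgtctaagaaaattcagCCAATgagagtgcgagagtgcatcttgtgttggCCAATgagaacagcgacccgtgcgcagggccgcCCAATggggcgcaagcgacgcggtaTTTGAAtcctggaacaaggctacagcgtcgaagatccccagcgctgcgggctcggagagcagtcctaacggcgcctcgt

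With base 251 of a window counted as +1, the E2F matches of E2F1 began at -33 and -20, those of RBL1 at -26 and -16, and that of CDK1 at 20. The CHR match of CCNB2 began at -29 and followed 4 CCAAT boxes, an arrangement typical of mitotic promoters. E2F7 held 4 CCAAT boxes, all on the opposite strand, and no E2F match, and CCNE1, whose window was 81.0% G or C, held none of the 3 motifs. No match says only that these letters are not in the window.

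Over the members, 52 of 57 genes had a window. The others were CCND1, CCND2, CCNE2, CDK2 and E2F8. The E2F letters were present in 9 of 52 member windows (17.3%), against 703 of 15843 windows of protein-coding genes (4.44%) and 908 of all 27305 windows (3.33%). They lay in the windows of CCNO, CDK1, CDK10, CDK19, E2F1, E2F2, E2F3, RBL1 and TFDP1. The CHR letters were in 9 member windows (17.3%), against 13.5% of windows of protein-coding genes and 16.6% of all windows. A CCAAT box was in 22 member windows (42.3%), against 36.4% of protein-coding windows and 35.7% of all windows. Of the 3 motifs, the E2F letters thus had the widest gap between the members and protein-coding genes at large.

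Of the 58 member probe sets, 14 (24.1%) had a signal at least 1.2 fold lower in linc00467 siRNA cells than in control siRNA cells, a log2 difference of 0.263 or more in size, and 6 (10.3%) had a signal higher by that fold. The background over all named probe sets was 9.78% lower and 8.50% higher. At the cut-off of 1.8 fold used in the study, 2 members were lower, CCNE1 and E2F7, and 0 were higher, beside 0.578% lower and 0.224% higher among all named probe sets. Most members had signal above that of the typical gene, since 47 probe sets lay at or above the median log2 level of named probe sets, 5.68. Of these 47, 14 (29.8%) were lower and 5 (10.6%) were higher, against 13.4% lower and 10.7% higher among all named probe sets at such levels. Among protein-coding named probe sets at such levels the shares were 13.1% lower and 10.8% higher. The surplus over the background thus lay in one direction, with more members lower in linc00467 siRNA cells and about as many higher as among other genes.

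The differences did not run one way over all families. The cyclins (25 probe sets) held 3 lower (12.0%) and 3 higher (12.0%) by 1.2 fold, with a median log2 difference of 0.00. The CDKs and CDK-like kinases (22 probe sets) held 7 lower (31.8%) and 2 higher (9.09%), with a median of -0.13. The E2Fs, DP partners and pocket proteins (10 probe sets) held 4 lower (40.0%) and 1 higher (10.0%), with a median of -0.15. Among all named probe sets 9.78% were lower and 8.50% higher, and among those at or above the median level 13.4% and 10.7%. Both cyclin shares lay near these values, as did the higher shares of the kinases and of the E2F group. Of the 58 probe sets, 28 had a log2 difference below 0, 24 above 0 and 6 (10.3%) had the same value on both arrays. Among all named probe sets 22.9% had the same value on both arrays. Why so many values were the same was not tested and may lie in the unknown processing. A difference of exactly 0 therefore does not by itself show that expression stayed the same. The median log2 difference was 0.00 over all members and -0.09 over the 47 at or above the median level, beside 0.00 for the named probe sets in both cases. The 20 members past 1.2 fold, 14 lower and 6 higher, are described below by role.

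**Figure D1:**
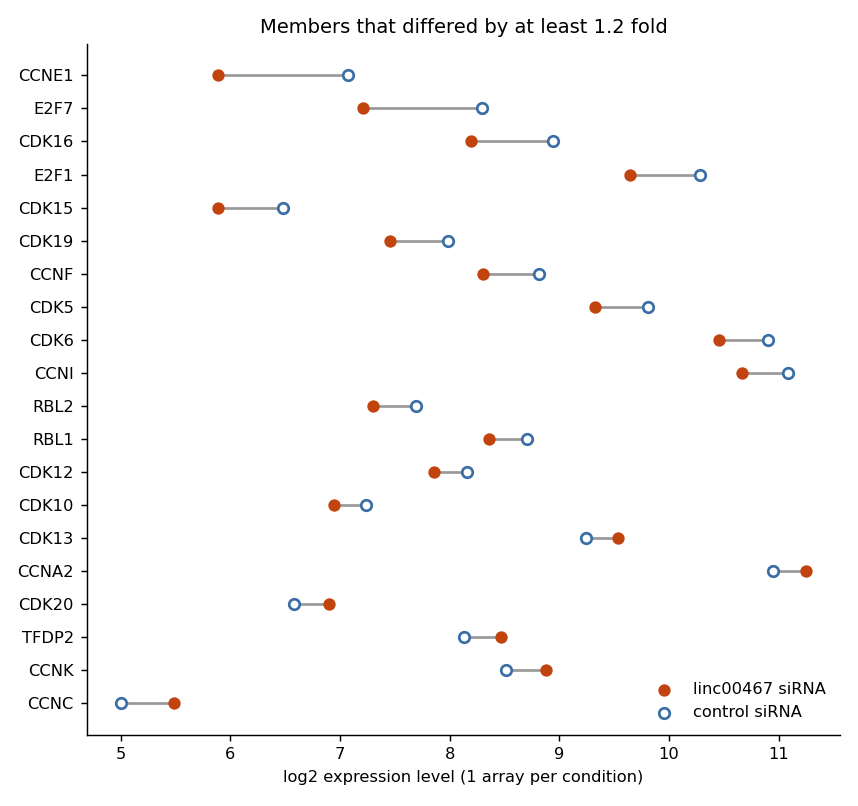
Log2 expression level (x axis) of the 20 member probe sets past 1.2 fold in either direction (y axis, by gene), with 1 point for the linc00467 siRNA array and 1 for the control siRNA array. CCNE1, at 5.89 in linc00467 siRNA cells and 7.07 in control siRNA cells, and E2F7, at 7.21 in linc00467 siRNA cells and 8.30 in control siRNA cells, have the widest gaps.

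The cyclins of the G1/S transition differed among themselves. CCNE1 encodes cyclin E1, the partner of CDK2 at entry into S phase (chromosome 19, probe set 16860418). Its log2 level was 5.89 in linc00467 siRNA cells and 7.07 in control siRNA cells, a log2 difference of -1.19, or 2.28 fold lower. Its paralogue CCNE2, which also pairs with CDK2, was at 8.41 in linc00467 siRNA cells and 8.19 in control siRNA cells, a log2 difference of 0.22. The E-type cyclins thus differed in opposite directions, and only CCNE1 passed 1.2 fold.

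The D-type cyclins, which couple growth signals to CDK4 and CDK6, stayed within 1.2 fold. CCND1 was at a log2 level of 10.32 in linc00467 siRNA cells and 10.16 in control siRNA cells. CCND3 was at 5.71 in both, and the 2 probe sets of CCND2 were at 3.85 in both and at 4.61 in linc00467 siRNA cells against 4.47 in control siRNA cells. CCND2 was near the level of olfactory receptor and keratin-associated protein genes, families not known to be active in neuroblastoma. Their 86 probe sets had a median of 3.73 in linc00467 siRNA cells and 3.65 in control siRNA cells. Of these 86, 9 (10.5%) were higher and 6 (6.98%) lower by 1.2 fold, so probe sets of such families also passed that fold.

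Among the cyclins of S phase and mitosis, CCNA2 (cyclin A2) was higher by 1.24 fold, at log2 levels of 11.25 in linc00467 siRNA cells and 10.94 in control siRNA cells. CCNB1 (cyclin B1), the main mitotic partner of CDK1, was at 8.99 in linc00467 siRNA cells and 8.73 in control siRNA cells, a log2 difference of 0.26 that lay just inside 1.2 fold and passed it under quantile normalization, at 0.28. CCNB2 was at 10.69 in linc00467 siRNA cells and 10.66 in control siRNA cells. All 3 of these thus had log2 differences above 0, and with the values as deposited only CCNA2 passed 1.2 fold. CCNF (cyclin F) behaved otherwise, at 8.30 in linc00467 siRNA cells and 8.81 in control siRNA cells, 1.42 fold lower. Cyclin F binds no CDK and serves instead as the substrate receptor of an SCF ubiquitin ligase. CCNB3, a cyclin known from meiosis, was at 5.04 in linc00467 siRNA cells and 4.94 in control siRNA cells.

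The cell cycle kinases differed less than CCNE1 did. CDK6 was the only one of the 4 measured that passed 1.2 fold, at log2 levels of 10.46 in linc00467 siRNA cells and 10.90 in control siRNA cells, 1.36 fold lower. CDK4, which shares its cyclins and substrates with CDK6, was at 11.37 on both arrays. CDK2 was at 9.59 in linc00467 siRNA cells and 9.78 in control siRNA cells, a log2 difference of -0.19. CDK1, the mitotic kinase, was at 8.54 in linc00467 siRNA cells and 8.39 in control siRNA cells, a log2 difference of 0.15.

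**Figure D2:**
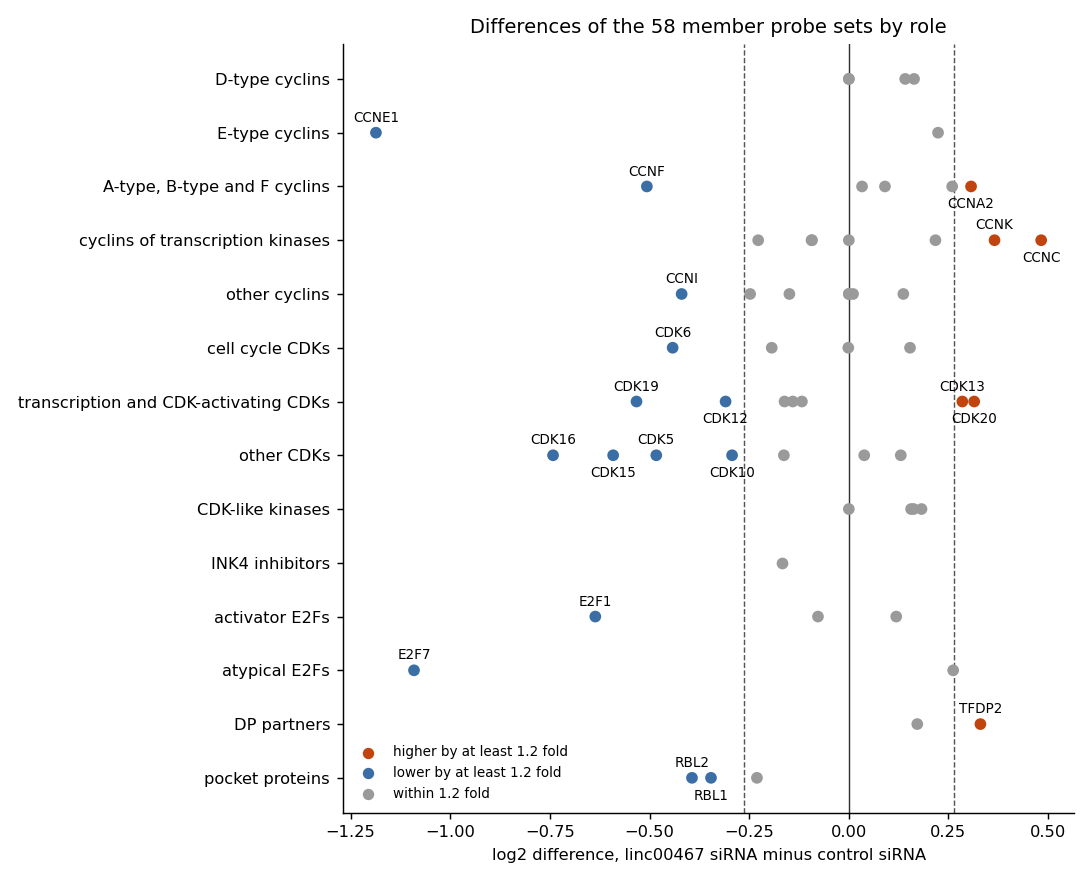
Log2 difference (x axis, linc00467 siRNA minus control siRNA) of each of the 58 member probe sets, by role (y axis), with 1 point per probe set and dashed lines at 1.2 fold. CCNE1 at -1.19 and E2F7 at -1.09 stand apart from their paralogues CCNE2 at 0.22 and E2F8 at 0.26, and all 3 pocket proteins lie below 0.

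The activator E2Fs were measured in full. E2F1, an activator of replication genes, was at log2 levels of 9.65 in linc00467 siRNA cells and 10.28 in control siRNA cells, 1.55 fold lower. The other activators stayed within 1.2 fold, with E2F2 at 7.31 in linc00467 siRNA cells and 7.39 in control siRNA cells, and E2F3 at 8.39 in linc00467 siRNA cells and 8.27 in control siRNA cells. Thus 1 of the 3 activators was lower by that fold.

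E2F7 and E2F8 are atypical E2Fs, which bind DNA without a DP partner and repress E2F1 and other E2F targets. E2F7 (chromosome 12, probe set 16767851) was at log2 levels of 7.21 in linc00467 siRNA cells and 8.30 in control siRNA cells, a log2 difference of -1.09, or 2.13 fold lower. E2F8 was at 8.31 in linc00467 siRNA cells and 8.05 in control siRNA cells, a log2 difference of 0.26 (0.29 under quantile normalization, past 1.2 fold). As with the E-type cyclins, 1 paralogue was lower in linc00467 siRNA cells and the other was not.

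The DP partners, which E2F1 to E2F6 need for binding DNA, lay above 0. TFDP2 was at 8.46 in linc00467 siRNA cells and 8.13 in control siRNA cells, 1.26 fold higher, and TFDP1 was at 7.55 in linc00467 siRNA cells and 7.38 in control siRNA cells.

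The pocket proteins, which hold E2Fs in check, all had log2 differences below 0, with a median of -0.35 over the 3 genes. RBL2 (p130) was at log2 levels of 7.30 in linc00467 siRNA cells and 7.70 in control siRNA cells, 1.31 fold lower. RBL1 (p107) was at 8.36 in linc00467 siRNA cells and 8.70 in control siRNA cells, 1.27 fold lower. RB1, the retinoblastoma protein, was at 9.59 in linc00467 siRNA cells and 9.83 in control siRNA cells, a log2 difference of -0.23 that missed 1.2 fold.

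Of the CDK inhibitors, only CDKN2A, which encodes p16INK4a and p14ARF, was measured by a probe set with a single gene name. It was at log2 levels of 6.86 in linc00467 siRNA cells and 7.03 in control siRNA cells, a log2 difference of -0.17. In all, 15 of 72 listed genes of these families were not analysed here. They included CDKN1A, CDKN1B, CDKN1C, CDKN2B, CDKN2C, CDKN2D, E2F4, E2F5 and E2F6, so nothing is said here of the CIP/KIP inhibitors or the repressor E2Fs. The choice by symbol also left out related genes that were measured, such as CDK11A, CCNJL and CCNYL1. Their log2 differences were -0.15, -0.18 and -0.17.

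The CDKs outside the core cycle were read in separate groups, and those without a main role in transcription or CDK activation come first. Of 7 such CDKs, 4 (57.1%) were lower by at least 1.2 fold and 0 were higher, with a median log2 difference of -0.29. The shares among all named probe sets were 9.78% lower and 8.50% higher. CDK16, a kinase activated by cyclin Y, was at log2 levels of 8.20 in linc00467 siRNA cells and 8.94 in control siRNA cells, 1.67 fold lower. CDK15, a little-studied relative of CDK16, was at 5.89 in linc00467 siRNA cells and 6.48 in control siRNA cells, 1.51 fold lower. CDK5, which is activated by CDK5R1 in neurons rather than by a cyclin, was at 9.33 in linc00467 siRNA cells and 9.81 in control siRNA cells, 1.40 fold lower. CDK10, the partner of cyclin M, was at 6.95 in linc00467 siRNA cells and 7.24 in control siRNA cells, 1.23 fold lower, but its log2 difference of -0.24 under quantile normalization missed 1.2 fold and left 3 of the 7 lower. The remaining CDK14, CDK17 and CDK18 had log2 differences of 0.13, -0.16 and 0.04, and CDK14 lay below the median of the olfactory receptor and keratin-associated protein probe sets on both arrays.

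The 7 kinases of transcription and CDK activation held 2 higher (28.6%) and 2 lower (28.6%) past 1.2 fold, with a median log2 difference of -0.14. Named probe sets as a whole held 8.50% higher and 9.78% lower, and those with levels from the median upward 10.7% and 13.4%. CDK19, one of the alternative kinases of the Mediator complex, was at log2 levels of 7.45 in linc00467 siRNA cells and 7.98 in control siRNA cells, 1.45 fold lower. CDK12, which phosphorylates the tail of RNA polymerase II with cyclin K, was at 7.85 in linc00467 siRNA cells and 8.16 in control siRNA cells, 1.24 fold lower. Its paralogue CDK13 was higher by 1.22 fold, at 9.53 in linc00467 siRNA cells and 9.25 in control siRNA cells. CDK20, also known as cell cycle-related kinase, was higher by 1.24 fold, at 6.90 in linc00467 siRNA cells and 6.58 in control siRNA cells. CDK7, CDK8 and CDK9 had log2 differences of -0.14, -0.16 and -0.12.

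The cyclins of the transcription kinases were higher or little different. CCNC (cyclin C), the Mediator cyclin, was at log2 levels of 5.48 in linc00467 siRNA cells and 5.0 in control siRNA cells, 1.40 fold higher. That was the largest positive difference of all members, but on a weak signal. CCNC was the only member past 1.2 fold below the median level of named probe sets, 5.68. CCNK (cyclin K) was at 8.88 in linc00467 siRNA cells and 8.51 in control siRNA cells, 1.29 fold higher. The other 5 cyclins of this role had log2 differences of -0.23 (CCNT2) to 0.22 (CCNH). Of the remaining cyclins, CCNI, an atypical cyclin expressed in neurons and other postmitotic cells, was at 10.67 in linc00467 siRNA cells and 11.09 in control siRNA cells, 1.34 fold lower. CCNY, the cyclin of CDK16 and CDK14, was at 6.73 in linc00467 siRNA cells and 6.98 in control siRNA cells, just inside 1.2 fold. CCNG1, CCNG2, CCNJ, CCNO and CCNP lay at log2 differences of -0.15 to 0.14, and the CDK-like kinases CDKL1, CDKL2, CDKL3 and CDKL4 at 0.00 to 0.18.

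The cyclins were also set beside the kinases that they bind, as a description, since with 24.1% of member probe sets lower and 10.3% higher few pairs could have both partners past 1.2 fold. Of 17 known cyclin-CDK pairs, 1 had both partners past 1.2 fold in the same direction, cyclin K with CDK13, whose log2 differences were 0.37 and 0.28. In 2 pairs the partners passed it in opposite directions, cyclin K at 0.37 with CDK12 at -0.31, and cyclin C at 0.48 with CDK19 at -0.53. The other kinase of cyclin C, CDK8, was at -0.16. Cyclin E1 at -1.19 stood beside CDK2 at -0.19, and cyclin D1 at 0.16 beside CDK6 at -0.44 and CDK4 at 0.00. The pairs share members, so they are not independent observations.

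The members were also divided by the promoter letters. Of the 9 whose windows held the E2F letters, 4 (CDK10, CDK19, E2F1 and RBL1) were lower by 1.2 fold and 0 were higher. The median log2 difference of the 9 was -0.08, and CDK10 missed 1.2 fold under quantile normalization, at -0.24. Of the 43 without the E2F letters, 10 were lower and 6 were higher, with a median of 0.00. Among all named probe sets, whatever their windows, 9.78% were lower and 8.50% higher. Of the 5 members that differed by at least 1.5 fold, E2F1 held the E2F letters and CCNE1, E2F7, CDK16 and CDK15 did not. The windows with the CHR letters held 3 lower and 1 higher member of 9, with a median log2 difference of 0.03, and those without held 11 lower and 5 higher members of 43, with a median of -0.09. The windows with a CCAAT box held 6 lower and 4 higher members of 22, and those without held 8 lower and 2 higher members of 30. These counts are a description of few genes and carry no test. Genes outside the members whose windows hold the same letters were not counted beside them.

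**Figure D3:**
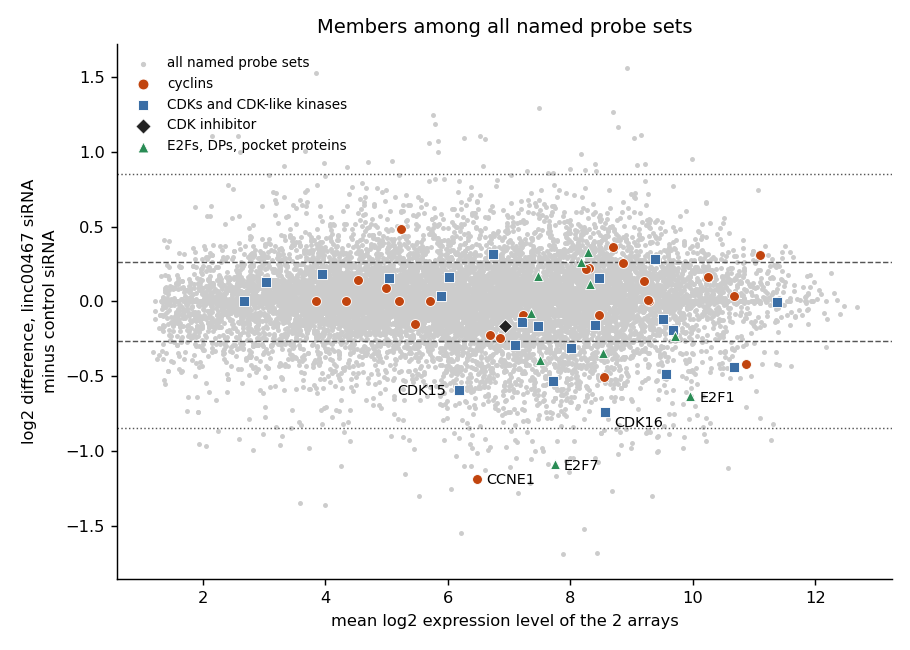
Log2 difference (y axis, linc00467 siRNA minus control siRNA) against the mean log2 level of both arrays (x axis) for the 58 member probe sets, marked by family, and all 16098 named probe sets in grey. Dashed lines mark 1.2 fold and dotted lines 1.8 fold, and the 14 members below the lower dashed line all lie to the right of 5.68, the median level.

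The members lay on 20 chromosomes. On chromosome 1, which also carries LINC00467, the members were CCNL2, E2F2 and CDK18, with log2 differences of -0.09, -0.08 and 0.04. The members with the highest and lowest mean signal, CDK4 at 11.37 on both arrays and CDKL4 at 2.68 on both arrays, did not differ by as much as 0.01 on the log2 scale.

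The genes around the pathway were read from lists drawn up by function. Among all named probe sets, 9.78% were lower and 8.50% higher by 1.2 fold. Among those at or above the median level, 5.68, 13.4% were lower and 10.7% higher. The E2F target list below had a median log2 level of 9.61 in linc00467 siRNA cells and 9.77 in control siRNA cells. Of 25 probe sets for 24 E2F target genes of DNA replication, 5 (20.0%) were lower by 1.2 fold and 2 (8.0%) were higher, and the median log2 difference was -0.06. Under lowess correction 0 were higher. CDC6, which loads the replicative helicase, was at log2 levels of 9.26 in linc00467 siRNA cells and 10.09 in control siRNA cells, 1.78 fold lower. DTL, a substrate receptor of the CUL4 ubiquitin ligase, was at 11.15 in linc00467 siRNA cells and 11.57 in control siRNA cells. CHEK1, the S phase checkpoint kinase, was at 8.53 in linc00467 siRNA cells and 8.95 in control siRNA cells. MCM10, a replication initiation factor, was at 9.33 in linc00467 siRNA cells and 9.65 in control siRNA cells. The helicase subunits MCM2, MCM4, MCM5, MCM6 and MCM7 stayed within 1.2 fold, with log2 differences of -0.08 to 0.13, and MCM3 was at 0.28. Thus 18 of the 25 probe sets stayed within 1.2 fold.

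Of 17 probe sets for 16 regulators of CDKs, 2 (11.8%) were lower and 4 (23.5%) were higher, with a median log2 difference of 0.00. Among all named probe sets 9.78% were lower and 8.50% higher, and among those at or above the median level 13.4% and 10.7%. Quantile normalization left 1 lower. CDC25B, a phosphatase that activates CDK1, was at log2 levels of 8.81 in linc00467 siRNA cells and 9.69 in control siRNA cells, 1.83 fold lower. WEE1, the kinase that opposes it, was at 9.41 in linc00467 siRNA cells and 9.09 in control siRNA cells, 1.25 fold higher. CDKN3, a phosphatase of CDKs, was at 9.62 in linc00467 siRNA cells and 9.22 in control siRNA cells, 1.31 fold higher. CDK2AP2, a relative of the CDK2-associated protein CDK2AP1, was at 7.61 in linc00467 siRNA cells and 7.27 in control siRNA cells, 1.26 fold higher. CDC25A and CDC25C, the other phosphatases of this family, had log2 differences of -0.08 and 0.19.

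The MuvB, MYB and FOXM1 genes, whose products bind CHR promoters, held 1 lower (12.5%) and 0 higher of 8 probe sets. MYBL1 was at log2 levels of 6.69 in linc00467 siRNA cells and 7.16 in control siRNA cells, while MYBL2, its relative in cycling cells, had a log2 difference of -0.11 and FOXM1 was at 9.85 on both arrays. The MuvB subunits LIN54 and LIN37 had log2 differences of 0.21 and 0.13. Of 20 mitotic genes that MuvB complexes bind, 6 (30%) were higher and 1 (5%) was lower, against 8.50% higher and 9.78% lower among all named probe sets and 10.7% and 13.4% among those at or above the median level. The median log2 difference was 0.16. NEK2, a kinase of the centrosome, was at 8.95 in linc00467 siRNA cells and 8.48 in control siRNA cells, 1.39 fold higher, and BUB1, a kinase of the spindle checkpoint, was at 9.51 in linc00467 siRNA cells and 9.11 in control siRNA cells. KIF23 was also higher, with a log2 difference of 0.39, and KIF4A was lower at -0.35, both kinesins of the mitotic spindle. Among the members of S phase and mitosis, CCNA2, CCNB1, CDK1, CCNB3 and CCNB2 had log2 differences of 0.31, 0.26, 0.15, 0.09 and 0.03, and CCNF was at -0.51.

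**Figure D4:**
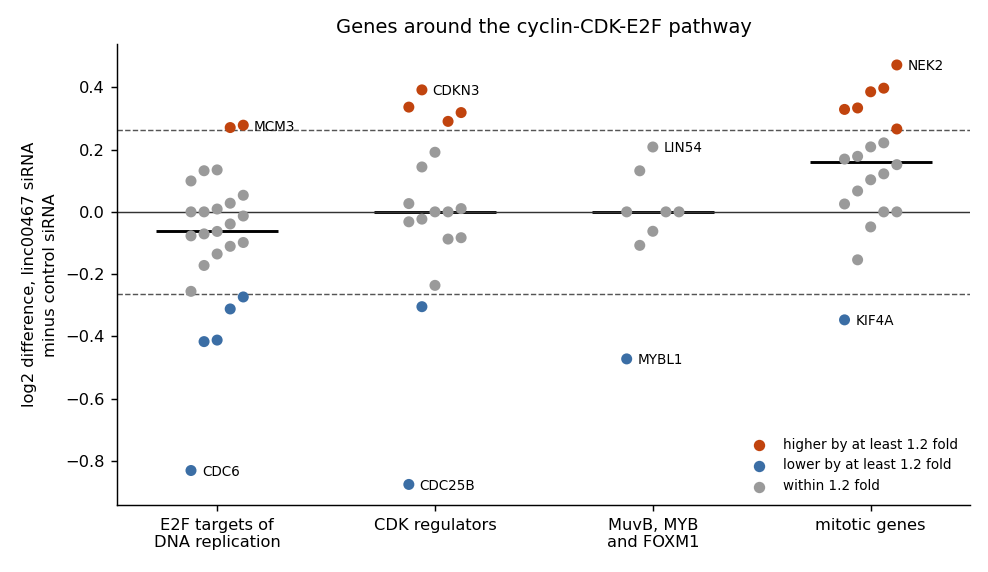
Log2 difference (y axis, linc00467 siRNA minus control siRNA) of each probe set in 4 lists of genes around the pathway (x axis), with 1 point per probe set, the list's median as a bar and dashed lines at 1.2 fold. CDC6 and CDC25B lie lowest, at -0.83 and -0.87, and the mitotic genes have a median of 0.16.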

How the data were processed

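Total RNA from 1 culture of BE(2)-C cells per siRNA had been hybridised to Affymetrix HuGene-2_0-st arrays. The deposited values are log2 expression levels, 1 per probe set and array. MAS5 is named in the submitters' processing notes, whereas the authors' methods give R with Bioconductor, so the background correction, normalization and centring are unknown. Tool versions: not given in the sources used here. The depth of an array is not a read count, and with 1 array per group no precision can be given.

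Gene names came from the platform annotation, with 16098 of 53617 probe sets linked to exactly 1 gene and the other 37519 not used here. Members were matched by symbol and all 57 genes matched RefSeq. The members, the gene lists and the tests were chosen with earlier results of these data known. The difference was the log2 level in linc00467 siRNA cells minus that in control siRNA cells, with values as deposited, counted at 1.2 fold and at the study's cut-off of 1.8 fold. The named genes were every member past 1.2 fold, the core G1/S and G2/M members whatever their value, the extremes of level, the members next to the threshold, and those of each pathway list that passed 1.8 fold or were among the 4 largest at or above the median level. Other genes named, among them the remaining MCM subunits, CDC25A, CDC25C, FOXM1, the partners of named members and the chromosome 1 members, were chosen after their values were seen.

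The alternatives were median centring, quantile normalization, lowess correction (fraction 0.2), a floor at silent gene families, 1 value per gene, a filter on level and a fold of 1.5. The background of protein-coding probe sets was chosen after seeing the data. The code was tested on simulated data. Python 3.11.15, numpy 2.4.6, pandas 2.3.3, scipy 1.17.1, statsmodels 0.14.6 and matplotlib 3.10.9 were used.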

Additional observations from a re-analysis of the deposited data

How the results depend on the processing

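No paired analysis was possible because each group held 1 array, and for the same reason no replicate could be left out. At a fold of 1.5 in place of 1.2, 0 members were higher and 5 were lower. The counts of members at 1.2 fold stayed within 1.5 times under the other alternatives run. Quantile normalization brought CCNB1 (log2 difference 0.28) and E2F8 (0.29) past 1.2 fold and left CDK10 (-0.24) short of it. Over all named probe sets, the median change that it made to the log2 difference was 0.02. All 180 alternatives for 36 single member values moved by less than 0.227, the SD of the log2 difference over all named probe sets. Of these alternatives, 0 turned the direction of a member past 1.2 fold. Median centring and the floor changed none of these values, and the mean of each gene changed only CCND2. Most of the alternatives thus could not move, and 0.227 is close to 0.263, the log2 of 1.2 fold. Of 40 alternatives for the pathway list counts, 2 moved, both by no more than 2 probe sets near 1.2 fold. The cause was not tested.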

Other observations

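Several genes carry similar symbols but fall outside the families, and they were picked after their values were seen. CDKAL1, which encodes a tRNA-modifying enzyme and not a cyclin-dependent kinase, had a log2 difference of 0.39 between linc00467 siRNA and control siRNA cells. RB1-DT, a noncoding transcript that runs divergently from RB1, was at log2 levels of 4.16 in linc00467 siRNA cells and 4.68 in control siRNA cells, a log2 difference of -0.52. CDKN2A-AS1 and CDKN2B-AS1, noncoding RNAs of the INK4 locus, had the same value on both arrays. RB1-DT, CDKN2A-AS1 and CDKN2B-AS1 all had weak signal, below the median log2 level of named probe sets, 5.68.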
